A study of Mus musculus with 32 samples.

Results

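Livers collected at zeitgeber time 20 (ZT20), late in the dark phase where lights come on at ZT0, were compared between mice on 2 diets. The comparison rests on 8 of the 32 libraries in the series, namely the 4 cdHFD and the 4 chow libraries whose names carry ZT20, and on all genes that passed an expression filter. All mice were wild type and had eaten either normal chow or cdHFD, a high-fat diet without choline and low in methionine, for 2 weeks. Each ZT20 group held 2 males (replicates 1 and 2) and 2 females (replicates 3 and 4). The other 24 libraries, 4 per diet at ZT2, ZT8 and ZT14, served to show what the diet effect at ZT20 did not share with the other times, and there cdHFD at ZT14 held 3 males and 1 female. The labels give neither age nor strain nor light schedule, and cdHFD is a dietary model with no gene altered.

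In liver the clock runs as a loop in which BMAL1 and CLOCK switch on the Period and Cryptochrome repressors, the REV-ERB receptors, and the PAR bZIP factors DBP, TEF and HLF, which carry the rhythm to output genes. Mice feed mostly in the dark, and feeding, body temperature and corticosterone set the timing of lipid synthesis, of protein-folding chaperones and of glucocorticoid-target genes. The late dark phase is the end of the main feeding period. Diets without choline hold back export of fat from hepatocytes and lead to fat storage, cell death, division of surviving hepatocytes and inflammation.

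Total counts at ZT20 ran from 30.5 to 45.3 M per library with a median of 39.4 M. Xist and the Y-linked gene Ddx3y matched the sex label in all 8 libraries. The composition factor that scales each library (TMM) was 0.867 ± 0.039 in chow and 1.31 ± 0.062 in cdHFD, and the albumin gene Alb took 8.67% ± 1.74 and 4.84% ± 0.23 of counts (SD, n = 4 each). Liver-defining genes were high in every library, for example Alb at no less than 32707 CPM (counts scaled to a common library size). The defining genes of other tissues were at or near 0: Lep, Ckm, Myh4 and Pnlip had no count, Adipoq stayed at or below 0.078 CPM and Prss2 at or below 0.0229 CPM, while Cela1, listed for pancreas, lay between 8.58 and 25.2 CPM. The first principal component of the 8 libraries held 74.7% of their variance and separated the diets, and the second held 15.3% and separated the sexes. In whole liver RNA, fewer cells of a type and less RNA per cell cannot be told apart. One library outside ZT20 stood apart in clock genes: cdHFD ZT2 replicate 4 had 39.9 CPM of Per3 against 1.80 to 16.3 in the other cdHFD ZT2 libraries. Results without it are given for the differences of Per1, Per2, Per3, Cry2, Tef, Usp2 and Ciart from the other times. Without it the differences of Actb (edgeR adjusted p = 0.0557), Dut (0.0530), Hspe1 (0.0517) and Lingo4 (0.0530) from the other times lost their calls. The diet effects at ZT2, and the list medians at ZT2, include it.

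Genes higher and lower in cdHFD were about equally many at ZT20. With Benjamini-Hochberg adjusted p under 0.05 in the quasi-likelihood test of edgeR, 6972 of 17853 genes were called (39.1%), 3530 higher (19.8%) and 3442 lower (19.3%) in cdHFD. The counts at the other times were 7446 at ZT2 (41.7%), 7149 at ZT8 (40.0%) and 6352 at ZT14 (35.6%), and the mean effect over those 3 times was called for 10081 genes (56.5%). For the diet effect at ZT20, total-count scaling shifted the all-gene median (log2) from -0.02 to 0.56, with 9041 genes called higher and 1172 lower. Directions at ZT20 are therefore relative to TMM scaling.

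Macrophage gene Gpnmb was among the genes furthest above chow at ZT20, and sex-biased liver genes were among those furthest below. Gpnmb, a membrane glycoprotein of lipid-laden macrophages (chromosome 6, 49036546 to 49070929), stood at 0.317, 0.311, 0.505 and 0.416 CPM in chow and at 136, 168, 113 and 122 CPM in cdHFD. The groups lay far apart, and Gpnmb rose by 8.35 ± 0.47 on the log2 scale (SE, edgeR quasi-likelihood adjusted p = 7.48e-14). Vmn2r3, annotated as a vomeronasal receptor, had 2 counts over the 4 chow libraries and 3240 over the cdHFD libraries, a ratio of 1080 (95% counting interval 298.6 to 8918), with more in the males (26.7, 28.6, 5.55 and 3.98 CPM). Cyp3a57, a cytochrome P450 gene, and Eef1a2, a translation elongation factor of nerve and muscle, had no count in chow and were at least 53.3-fold and 47.3-fold higher in cdHFD, and the microRNA gene Mir6358 at least 74.2-fold, against a floor of 3 counts over the group. Among the 5 lowest, the female-biased sulfotransferase gene Sult3a1 stood at 0, 0.0389, 119.6 and 41.6 CPM in chow and had no count in cdHFD, at least 3288-fold lower over the group. The male-type urinary protein genes Mup12, Mup15 and Mup16 fell by 11.61, 10.61 and 10.51 on the log2 scale and Serpina4-ps1 by 10.41. Near-identical Mup and Cyp copies can share reads, so single members of these families are uncertain.

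Against that background, few genes had a diet effect that was particular to ZT20. The diet effect at ZT20 minus the mean of the effects at ZT2, ZT8 and ZT14 was called for 57 genes (0.319%), 14 of them with a higher (0.0784%) and 43 with a lower diet effect at ZT20 (0.241%), with adjusted p from 0.00393 to 0.0493. At an unadjusted p under 0.05 the same contrast took 1518 genes (8.50%). The same contrast built around each other time called 723 genes for ZT2 (4.05%), 708 for ZT8 (3.97%) and 57 for ZT14 (0.319%), and these contrasts share all libraries. Taken pair by pair, the diet effect at ZT20 differed from that at ZT8 for 508 genes (2.85%), from ZT2 for 38 (0.213%) and from the other dark-phase time ZT14 for 26 (0.146%). Of the 43 genes with the lower effect, 40 were also called against ZT8, 12 against ZT2 and 8 against ZT14, and of the 14 with the higher effect 14, 1 and 2 were, all in the same direction.

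The count of 57 depended on the fit. With no filter on low counts 465 genes were called, 461 of them genes that pass the filter. The count of 57 also depended on single libraries. It fell to 36, 13 and 28 without chow ZT20 replicates 1, 2 and 4, and to 25, 16, 18 and 13 without cdHFD ZT20 replicates 1 to 4, and it rose to 89 without cdHFD ZT2 replicate 1. All 57 genes kept their sign without each of the 32 libraries in turn, and 11 of them were called every time. These were Thrsp, Tsc22d3, Acmsd, Fgf1, Cry2, Stip1, Ppil1, Hsp90ab1, Ift46, Cenpa and Aqp7.

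The ZT20 difference came from both diets. Of the 43 genes with the lower effect, 23 stood higher in chow at ZT20 than in chow at the other times, 22 stood lower in cdHFD at ZT20 than in cdHFD at the other times, and 2 did both. Of the 14 genes with the higher effect, 8 were lower in chow at ZT20, 7 were higher in cdHFD at ZT20 and 1 did both. Over all genes, chow at ZT20 differed from the other chow times for 1253 genes (7.02%) and cdHFD for 562 (3.15%). These contrasts are components of the 57 calls and no separate evidence for them. The 4 cdHFD values did not overlap the 4 chow values for 36 of the 43 and 11 of the 14 genes, against 43.6% of all genes tested.

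**Figure D1:**
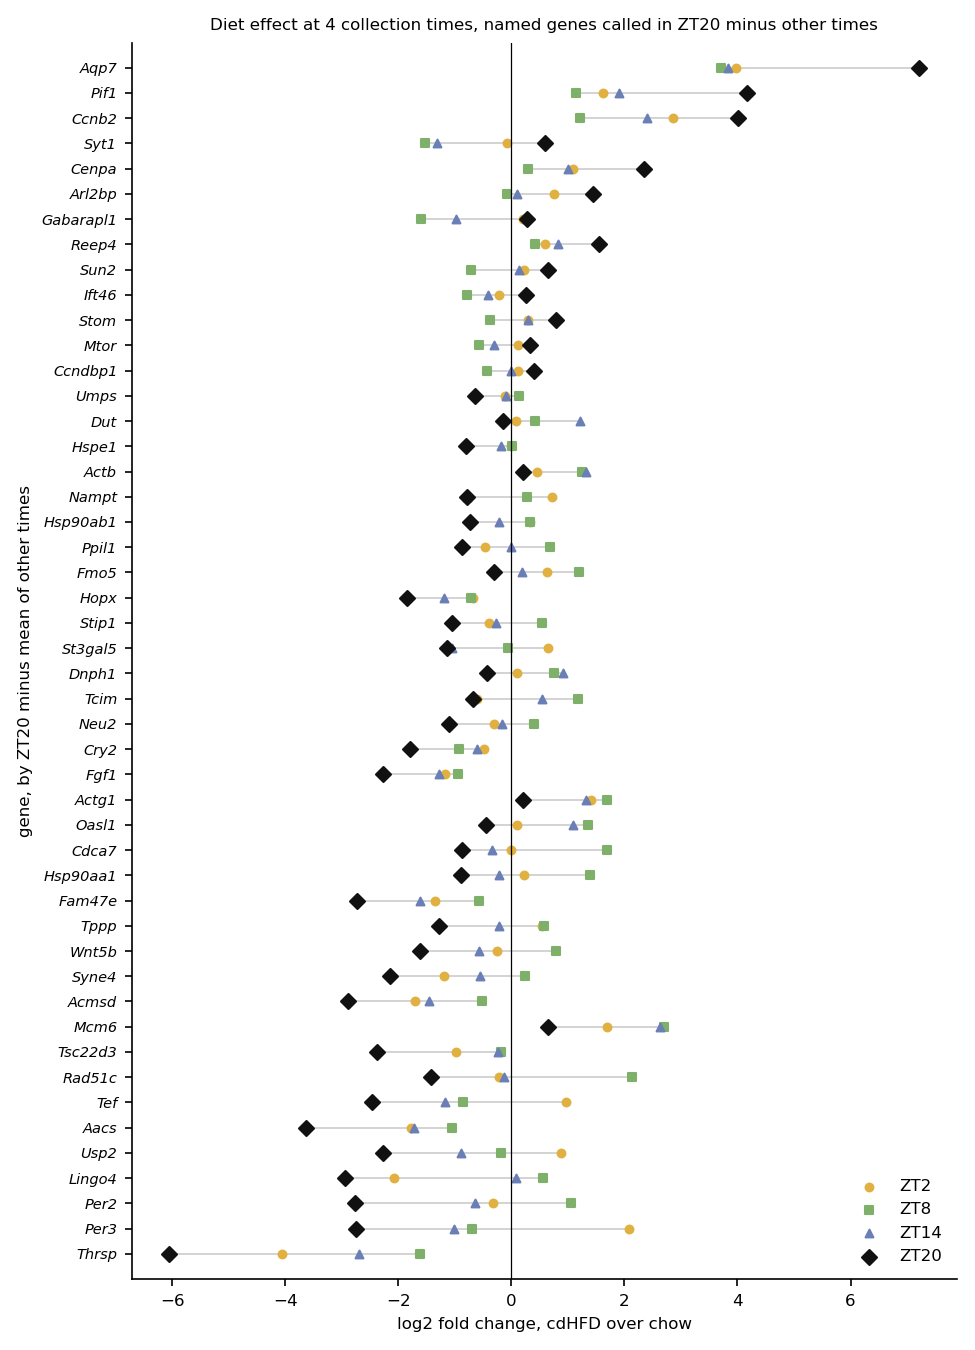
Log2 fold change of cdHFD over chow (x axis) for 48 genes with established names among the 57 called, one row each, at ZT2, ZT8, ZT14 and ZT20. In every row the black ZT20 diamond is at one end, to the right for 13 genes and to the left for 35, and Thrsp (-6.05) and Aqp7 (7.22) are the outermost.

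Clock repressors were among the genes with the largest differences. Per2, which feeds back on BMAL1 and CLOCK (chromosome 1, 91415982 to 91459324), stood at 65.8, 54.6, 70.7 and 70.0 CPM in chow and at 11, 8.34, 8.36 and 10.5 CPM in cdHFD at ZT20. The lowest chow liver was far above the highest cdHFD liver, and the change of -2.76 ± 0.48 was called (edgeR adjusted p = 2.86e-05), while the effects of -0.33 at ZT2, 1.06 at ZT8 and -0.64 at ZT14 were not. The difference from those times was -2.79 ± 0.56 (adjusted p = 0.0163). In chow the mean was highest at ZT14, where the livers had 71.9, 129, 91.1 and 108 CPM. In cdHFD it was highest at ZT8 with 66.7 ± 12.5, against 9.56 ± 1.41 at ZT20 (SD, n = 4 each).

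Per3, a weaker Period repressor (chromosome 4, 151003652 to 151044665), stood at 18.5, 17.5, 14.1 and 14.2 CPM in chow and at 2.37, 2.34, 2.63 and 2.56 CPM in cdHFD at ZT20. Its diet effect was -2.75 there, against 2.08 at ZT2, -0.70 at ZT8 and -1.01 at ZT14, so that it was called higher in cdHFD at ZT2 and lower at ZT20. The difference of ZT20 from the mean of the others was -2.87 ± 0.66 with an edgeR adjusted p of 0.0493, and the call was kept in 7 of the 32 fits that left out 1 library. It was lost without the sex term (edgeR adjusted p = 0.0826). Without cdHFD ZT2 replicate 4 the difference was -2.51 (edgeR adjusted p = 0.0297), and the pairwise difference from ZT2 went from -4.83 to -3.80 and stayed called.

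Cry2, the second Cryptochrome repressor (chromosome 2, 92403646 to 92434043), stood at 40.9, 44.1, 49.1 and 42.1 CPM in chow and at 15.2, 13.4, 12.4 and 9.74 CPM in cdHFD, with no overlap. Its change at ZT20, -1.79 ± 0.14, compares with -0.48 at ZT2, -0.93 at ZT8 and -0.60 at ZT14, and Cry2 was the single gene of the 43 whose difference was called against each of the other times (-1.31, -0.87 and -1.19). Per1 stood at 10.2, 17.8, 54.3 and 27.6 CPM in chow, with the females above the males, and at 10.5, 12.5, 9.43 and 8.09 CPM in cdHFD. It was called lower at ZT20 (-1.30 ± 0.42) while its mean effect over the other times was called higher, but the ZT20 call was lost under total counts (-0.75), and its difference of -1.97 ± 0.48 missed the threshold (edgeR adjusted p = 0.0521, and 0.0443 without cdHFD ZT2 replicate 4).

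Lingo4, a leucine-rich repeat gene whose exons overlap an antisense gene, stood at 10.6, 9.25, 7.11 and 11.7 CPM in chow and 1.15, 1.35, 1.11 and 1.42 CPM in cdHFD at ZT20, with no overlap, and its difference from the other times was -2.46 ± 0.62 (edgeR adjusted p = 0.0410). That call was kept in 15 of the 32 fits that left out 1 library, and was lost without the sex term (edgeR adjusted p = 0.0517) and against ZT2 and ZT8 only (0.0727). Without strand the reads of overlapping genes cannot be told apart.

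Of the 17 core clock genes, 8 were called lower at ZT20 and 1 higher, where 19.3% and 19.8% of all genes were, with a median diet effect of -0.46 against -0.02 for all genes, and under total counts 5 were lower and 3 higher. The medians at ZT2, ZT8 and ZT14 were 0.35, -0.19 and -0.18, with cdHFD ZT2 replicate 4 included. Ciart, a repressor of BMAL1, fell by 2.53 at ZT20 from 3.98 to 0.678 CPM, close to its effect at ZT14 (-2.49). Its effects were 2.15 at ZT2 and -1.01 at ZT8. Without cdHFD ZT2 replicate 4 its difference from the other times was -1.51 and not called (edgeR adjusted p = 0.356). Arntl, the gene of BMAL1, had a ZT20 diet effect of -0.20 ± 0.59 and Clock one of -0.26, neither of them called. The gene that rose was the kinase gene Csnk1e (0.73).

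**Figure D2:**
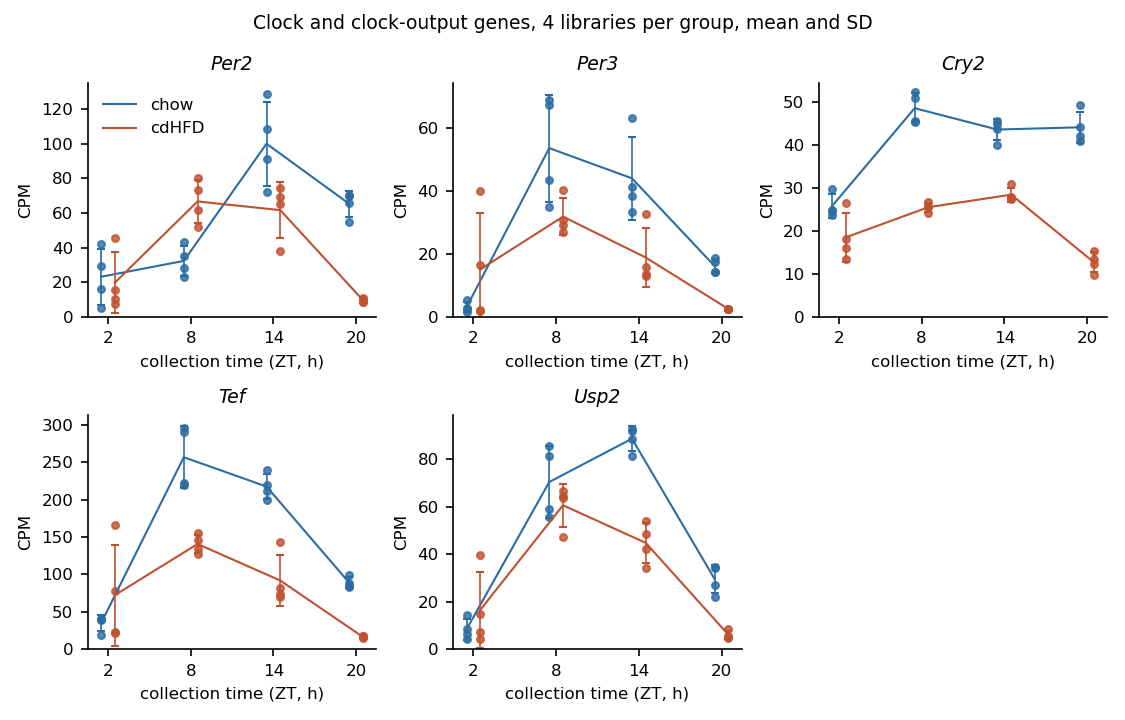
CPM (y axis) of Per2, Per3, Cry2, Tef and Usp2 at each collection time (x axis, ZT in h) in chow (blue) and cdHFD (red), with 1 point per library and lines through the means ± SD (n = 4). At ZT20 the red points lie below all blue points in the 5 panels, and at ZT2 the cdHFD points are widely spread.

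PAR bZIP genes were lower in cdHFD at ZT20 as well. Tef, a PAR bZIP activator (chromosome 15, 81802421 to 81826863), stood at 99.4, 88.1, 84.3 and 83.1 CPM in chow and at 17.5, 16.9, 16 and 14.2 CPM in cdHFD at ZT20. It fell by 2.46 ± 0.40 there, against 0.96 at ZT2, -0.85 at ZT8 and -1.18 at ZT14, a difference of -2.10 ± 0.47 (edgeR adjusted p = 0.0301), and of -1.84 without cdHFD ZT2 replicate 4. Usp2, a ubiquitin protease of the PAR bZIP programme, stood at 22.2, 34.6, 27.1 and 34.3 CPM in chow and 8.46, 4.81, 5.04 and 5.71 CPM in cdHFD, and was called at ZT20 (-2.27 ± 0.40) but at none of the other times (0.88 at ZT2, -0.19 at ZT8 and -0.90 at ZT14), a difference of -2.20 ± 0.46 (edgeR adjusted p = 0.0234). Nampt, the rate-limiting enzyme of NAD salvage, stood at 63.4, 94.8, 72.8 and 86.5 CPM in chow and 49.3, 48.1, 44.8 and 40.7 CPM in cdHFD. The Nampt effect of -0.79 ± 0.16 was close to that at ZT14 (-0.78) and opposite to that at ZT2 (0.72), and its ZT20 call was lost under total counts (-0.20). In all, 8 of the 13 PAR bZIP genes tested were called lower at ZT20 (4 under total counts), where 19.3% of all genes were. None was called higher, and the median was -1.08. The median was 0.88 at ZT2 (with cdHFD ZT2 replicate 4 included), -0.19 at ZT8 and -1.04 at ZT14, where 7 were called lower. No difference between ZT20 and ZT14 was called for a PAR bZIP gene. Hlf fell by 1.57 and the coumarin hydroxylase gene Cyp2a5 by 1.95, while Dbp, from 5.73 to 1.87 CPM, was not called. Without cdHFD ZT2 replicate 4 the differences from the other times were -2.54 for Per2, -1.94 for Usp2 and -1.05 for Cry2, and all 3 stayed called.

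The promoters of Per3 and Tef are printed because they hold motifs that clock factors are known to bind, from 250 bases before to 50 after the start in RefSeq, build GRCm38.p6. Capitals mark TTATGTAA, the D-box bound by PAR bZIP factors, at Per3 (chr4:151044616-151044915, minus strand), and CACGTG, the E-box bound by BMAL1 and CLOCK, at Tef (chr15:81802423-81802722, plus strand), each on both strands.
Per3: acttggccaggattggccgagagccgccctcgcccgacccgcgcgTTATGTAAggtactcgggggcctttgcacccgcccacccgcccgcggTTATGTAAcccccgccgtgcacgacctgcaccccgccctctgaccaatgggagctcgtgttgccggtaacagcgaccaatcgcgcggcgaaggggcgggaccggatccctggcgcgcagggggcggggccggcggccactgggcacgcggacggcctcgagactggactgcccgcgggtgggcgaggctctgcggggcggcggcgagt
Tef: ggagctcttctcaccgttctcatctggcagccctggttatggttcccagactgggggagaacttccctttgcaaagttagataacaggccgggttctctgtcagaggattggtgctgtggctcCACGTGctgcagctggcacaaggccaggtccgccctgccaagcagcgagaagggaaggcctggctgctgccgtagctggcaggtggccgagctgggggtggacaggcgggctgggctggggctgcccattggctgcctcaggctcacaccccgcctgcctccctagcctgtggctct
The Per3 window held the D-box at 205 and at 158 bases before the start, and 0.938% of all 32851 promoters in the table hold one. The E-box was in both annotated Tef windows, and 7.15% of all promoters hold one. Of 15 genes looked up, 10 were in the table, and none of the other 8 held either motif in these windows. The genes looked up but not in the table were Per2, Hsp90aa1, Hsp90ab1, Pif1 and Reep4. A match is a description of letters and not a measured binding site.

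Chaperones formed another group, and Hsp90aa1, Hsp90ab1, Stip1 and Hspe1 were called higher at ZT20 than at the other times in chow, with no call in cdHFD. Hsp90aa1, the inducible HSP90 (chromosome 12, 110690605 to 110702728), stood at 353, 390.4, 347 and 280.4 CPM in chow and 214, 177, 168 and 180.1 CPM in cdHFD at ZT20, with no overlap. In chow it went from 97.2 ± 26 CPM at ZT8 to 343 ± 45.8 at ZT20, and in cdHFD from 251 ± 74.7 to 185 ± 20.2. The diet effect turned from 1.40 at ZT8 (called higher) to -0.89 ± 0.25 at ZT20 (called lower), and its difference from the other times was -1.36 ± 0.29 (edgeR adjusted p = 0.0230).

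The constitutive partner Hsp90ab1 stood at 1476, 1641, 1512 and 1405 CPM in chow and 1011, 975, 788 and 864 CPM in cdHFD. It was called at ZT20 (-0.73 ± 0.12, edgeR adjusted p = 9.47e-05) and at no other time (0.32 at ZT2, 0.33 at ZT8 and -0.21 at ZT14). Under total counts the ZT20 calls of Hsp90aa1 (-0.30), Hsp90ab1 (-0.14) and Hspe1 (-0.20) were lost, with the sign kept. Stip1, which passes clients from HSP70 to HSP90, stood at 182, 160.0, 167 and 144 CPM in chow and 85, 81.8, 76.8 and 73.7 CPM in cdHFD, a change of -1.04 ± 0.13 against -0.40 at ZT2, 0.54 at ZT8 and -0.27 at ZT14. Hspe1, the mitochondrial co-chaperonin, stood at 272, 283, 233 and 243 CPM in chow and 149, 158, 143 and 142 CPM in cdHFD and was also called at ZT20 only (-0.80 ± 0.14). The difference of Hspe1 from the other times was -0.74 ± 0.16 (adjusted p = 0.0467), kept in 12 of the 32 fits that left out 1 library, and its exons overlap those of Hspd1 on the other strand.

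Of the 21 heat shock and cold-inducible genes, 10 were called lower and 2 higher at ZT20, where 19.3% and 19.8% of all genes were. Under total counts 2 were lower and 3 higher. The median diet effect went from 0.01 at ZT2 and 0.72 at ZT8 to -0.27 at ZT14 and -0.45 at ZT20. Against ZT8, 14 of them were called lower, where 1.66% of all genes were. Against the mean of the other times 4 were called lower (0.241% of all genes), and 4 under total counts too. An unadjusted p under 0.05 in that contrast held for 14 (8.50% of all genes). Hsph1, an HSP110 chaperone, had the largest fall at ZT20 (-1.35, from 70.6 to 28.2 CPM). The 2 that rose were Hspa1a (1.75, an inducible HSP70) and Rbm3 (0.50, a cold-inducible RNA-binding protein). The Hspa1a call was lost without any one of the 8 ZT20 libraries, and that of Rbm3 without chow ZT20 replicate 3. Endoplasmic reticulum chaperones and XBP1 targets were lower for 17 of 24 at ZT20, where 19.3% of all genes were. Under total counts 5 were higher and none lower, and no difference from the other times was called.

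The promoter of Hspe1 is printed (chr1:55087898-55088197, plus strand, GRCm38.p6) with the paired heat shock units GAANNTTC and TTCNNGAA in capitals, each searched on both strands. They are the units that heat shock factors bind.
Hspe1: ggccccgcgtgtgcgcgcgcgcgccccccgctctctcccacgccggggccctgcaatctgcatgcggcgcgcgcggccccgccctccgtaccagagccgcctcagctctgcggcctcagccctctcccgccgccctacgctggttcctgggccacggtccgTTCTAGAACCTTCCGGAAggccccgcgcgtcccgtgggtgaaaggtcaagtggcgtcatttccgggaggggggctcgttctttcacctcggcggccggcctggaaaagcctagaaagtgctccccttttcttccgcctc
The 3 matches overlap in 1 run, from 89 to 72 bases before the start. GAANNTTC is found in 7.86% and TTCNNGAA in 8.52% of all promoters in the table, and among the other 9 genes found Cenpa held a TTCNNGAA.

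The median diet effect of mitosis genes was higher at ZT20 than at the other times, and that of DNA replication genes lower. Ccnb2, a mitotic cyclin (chromosome 9, 70407692 to 70421547), stood at 1.87, 0.738, 0.889 and 1.61 CPM in chow and at 18.7, 19.3, 24.2 and 20.8 CPM in cdHFD at ZT20. It rose by 4.02 ± 0.38, more than at the other times (2.86 at ZT2, 1.21 at ZT8 and 2.40 at ZT14), with a difference of 1.86 ± 0.44 (edgeR adjusted p = 0.0325). At ZT2 the cdHFD males were at 16.6 and 22.1 CPM, near the ZT20 level, and the cdHFD females at 9.65 and 6.70 CPM, and Cdc20 was at 44.4 and 33.1 CPM in those males and 6.31 and 4.45 CPM in those females. The lower female in both genes is cdHFD ZT2 replicate 4, the library that stood apart in clock genes. The difference of ZT20 from ZT2 alone was not called for Ccnb2 (1.16, and 0.91 without that replicate). Cenpa, the histone H3 variant of centromeres (chromosome 5, 30666777 to 30674830), stood at 5.39, 5.40, 5.38 and 6.29 CPM in chow, where replicate 4 was apart from the 3 others, and at 26.2, 26.5, 32 and 29.9 CPM in cdHFD. Its rise was 2.35 ± 0.22 against 1.08 at ZT2, 0.30 at ZT8 and 1.01 at ZT14 and its difference 1.55 ± 0.26 (edgeR adjusted p = 0.00523).

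Pif1, a DNA helicase gene (chromosome 9, 65587160 to 65595967), went from 0.388, 0.389, 0.433 and 0.520 CPM in chow to 7.19, 5.29, 10.6 and 8.57 CPM in cdHFD, a rise of 4.17 ± 0.51 against 1.14 to 1.91 at the other times. Reep4, which keeps endoplasmic reticulum off mitotic chromosomes, rose by 1.56 ± 0.18 at ZT20 with a difference of 0.94 ± 0.20. Of the 31 mitosis genes all were called higher at ZT20, also under total counts, where 19.8% of all genes were higher under TMM scaling. Their median was 3.85 against 2.86 at ZT2, 1.93 at ZT8 and 3.06 at ZT14. Ccnb1 rose by 5.51 ± 0.79 from 0.504 to 23 CPM, Cdc20 by 5.09 ± 0.71 and Ube2c by 5.12 ± 0.52, the last 2 being an activator and the ubiquitin-conjugating enzyme of the complex that ends mitosis. Every member had a larger effect at ZT20 than the mean of the other times, where 52.3% of all genes had a smaller one. Ccnb2 was the one member whose difference was called, and 20 had an unadjusted p under 0.05 (8.50% of all genes). Against ZT8, 10 were called higher, where 1.19% of all genes were.

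The replication genes had their lowest median diet effect at ZT20. Mcm6, a subunit of the helicase that opens replication origins (chromosome 1, 128331590 to 128359664), stood at 7.19, 17.6, 5.96 and 10.8 CPM in chow and 13.3, 16.2, 19.6 and 18.5 CPM in cdHFD at ZT20, and these values overlap. At ZT8 and ZT14 cdHFD had 48.9 ± 3.96 and 49.7 ± 11.5 CPM, at ZT20 16.9 ± 2.80. The diet effect was 1.70 at ZT2, 2.71 at ZT8 and 2.63 at ZT14, all called, and 0.66 ± 0.32 at ZT20, not called (1.26 and called under total counts), a difference of -1.69 ± 0.38 (edgeR adjusted p = 0.0308). Of the 29 G1/S and replication genes 13 were called higher and 2 lower at ZT20, where 19.8% and 19.3% of all genes were. The higher count was 24 under total counts, 8 without chow ZT20 replicate 3 and 20 without chow ZT20 replicate 2. It was 4 in males and 16 in females. The median was 0.65 where the other times had 1.45 to 1.60. The effect at ZT20 was below the mean of the others for 27 of the 29, 18 had an unadjusted p under 0.05 (8.50% of all genes), 9 were called lower than at ZT8 (1.66% of all genes), and Mcm6 was the one called against the mean of the other times. The 2 lower at ZT20, Mcm10 (-2.34) and Tk1 (-1.53), encode a replication initiation factor and a thymidine kinase. Exons of Tk1 overlap those of Afmid on the other strand, which stood at 59.4, 65.5, 66.4 and 66.7 CPM in chow and 10.5, 8.91, 6.20 and 5.99 CPM in cdHFD, so the reads of this pair cannot be told apart. Rad51c, of homologous recombination, was called lower at ZT20 (-1.42 ± 0.37, 2.47, 3.93, 3.29 and 2.76 against 0.721, 0.812, 1.52 and 1.55 CPM) but higher at ZT8 (2.13), its ZT20 call was lost under total counts (-0.82), and it had a difference of -2.02 ± 0.42. Dut, which removes dUTP (-0.71 ± 0.15, with a ZT20 effect of -0.14 that turned to 0.46 under total counts), Cdca7, a MYC and E2F target (-1.33 ± 0.30, its ZT20 call lost under total counts at -0.29), and Umps, the last enzyme of UMP synthesis (-0.62 ± 0.13), also had a lower effect at ZT20. Without cdHFD ZT2 replicate 4 the difference of Dut was not called (edgeR adjusted p = 0.0530).

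**Figure D3:**
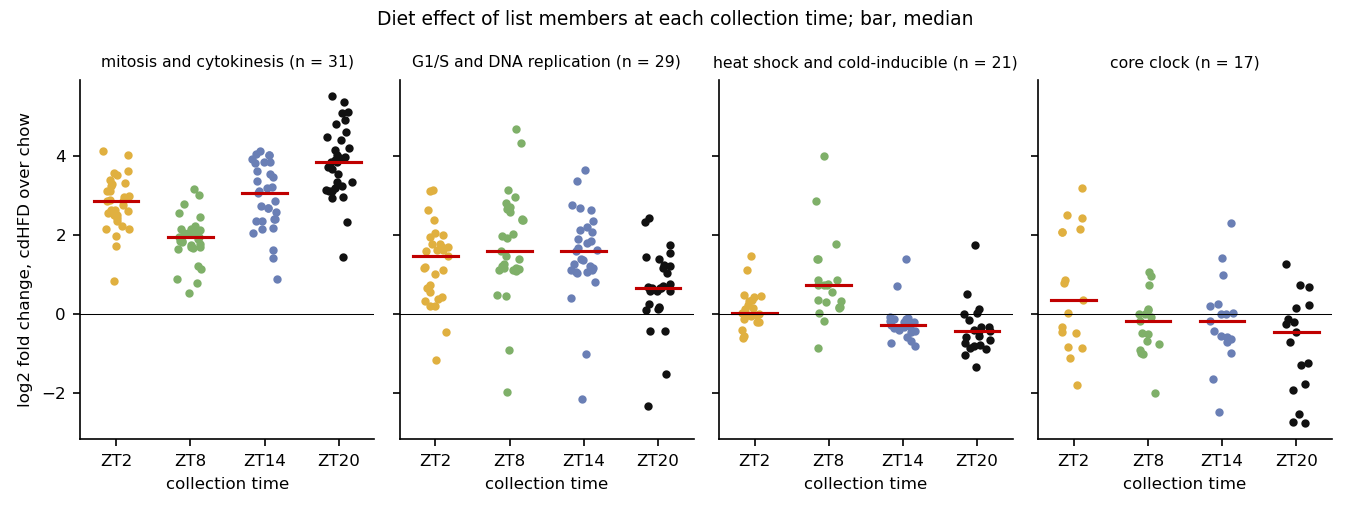
Log2 fold change of cdHFD over chow (y axis) for each member of 4 gene lists at each collection time (x axis), 1 point per gene, with the median as a red bar. The mitosis median is highest at ZT20 (3.85) and lowest at ZT8 (1.93), while the replication, heat shock and core clock medians are lowest at ZT20 (0.65, -0.45 and -0.46).

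The promoters of Ccnb2 (chr9:70421505-70421804, minus strand) and Cenpa (chr5:30666636-30666935, plus strand) are printed from the same build, since mitotic genes share an arrangement of CCAAT boxes and a CHR element near the start. Capitals mark CCAAT and TTTGAA on either strand.
Ccnb2: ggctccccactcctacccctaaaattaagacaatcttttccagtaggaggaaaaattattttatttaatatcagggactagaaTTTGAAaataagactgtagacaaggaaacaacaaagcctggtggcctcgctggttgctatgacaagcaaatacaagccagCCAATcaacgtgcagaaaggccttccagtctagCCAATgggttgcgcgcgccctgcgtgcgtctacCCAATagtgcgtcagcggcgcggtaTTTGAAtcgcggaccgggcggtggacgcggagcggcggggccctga
Cenpa: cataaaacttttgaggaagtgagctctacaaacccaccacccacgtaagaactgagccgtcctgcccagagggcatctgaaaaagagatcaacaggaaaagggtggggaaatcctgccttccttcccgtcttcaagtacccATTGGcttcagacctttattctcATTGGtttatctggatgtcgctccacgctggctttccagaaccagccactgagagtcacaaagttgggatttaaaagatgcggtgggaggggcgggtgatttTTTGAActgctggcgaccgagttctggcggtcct
Ccnb2 held 3 CCAAT boxes, at 87, 54 and 21 bases before the start, and 2 copies of TTTGAA, one before and one after it. Cenpa held 2 CCAAT boxes, on the other strand, at 109 and 86 bases before the start, and TTTGAA after it. The CCAAT box is in 37.4% and TTTGAA in 17.9% of all promoters, so single matches are common. Among the 8 other genes found, Per3, Cry2, Tef and Stip1 held a CCAAT box and none held TTTGAA.

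Fatty acid synthesis genes had negative median diet effects at every time, and Thrsp differed at ZT20. Thrsp, a thyroid hormone and insulin responsive activator of fatty acid synthesis (chromosome 7, 97412938 to 97417730), stood at 1414, 1974, 572 and 1131 CPM in chow and 27.4, 18.2, 13.3 and 18.5 CPM in cdHFD. The change of -6.05 ± 0.47 (edgeR adjusted p = 1.64e-09) compares with -4.07 at ZT2, -1.61 at ZT8 and -2.69 at ZT14, and the difference of -3.26 ± 0.55 was the largest of the 43 (adjusted p = 0.00523). In cdHFD it had 241 ± 149.7 CPM at ZT14 and 19.4 ± 5.88 at ZT20.

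Aacs, which makes acetoacetyl-CoA for lipid synthesis, stood at 206, 204, 137 and 194 CPM in chow and 18.9, 17, 9.81 and 14.2 CPM in cdHFD, with a change of -3.63 ± 0.39 and a difference of -2.12 ± 0.45. In the list for fatty acid and triglyceride synthesis, with 23 genes, 19 were called lower at ZT20 and none higher, where 19.3% of all genes were lower. Under total counts 14 were lower and 2 higher. The median was -1.70 against -1.08, -1.28 and -1.02 at ZT2, ZT8 and ZT14. Elovl3 (-4.31, a fatty acid elongase), Acss2 (-3.41, acetyl-CoA synthetase) and Acacb (-3.14, acetyl-CoA carboxylase) fell furthest after Thrsp, and Thrsp alone of the list differed from the other times. Of 25 cholesterol genes, 24 were lower at ZT20, also under total counts, where 19.3% of all genes were lower under TMM scaling. They were led by Fdps (-4.82) and Idi1 (-4.70) of the mevalonate pathway, and no difference from the other times was called.

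Tsc22d3, the glucocorticoid-induced leucine zipper gene (chromosome X, 140539528 to 140600659), stood at 86.5, 133, 233 and 183 CPM in chow and 34.6, 41.1, 23.7 and 26 CPM in cdHFD at ZT20. At ZT14 both diets were high (199 ± 9.32 and 173 ± 24.7 CPM). It fell by 2.37 ± 0.30 at ZT20 against -0.98 at ZT2, -0.19 at ZT8 and -0.24 at ZT14, a difference of -1.90 ± 0.34 (edgeR adjusted p = 0.00523). Of 18 glucocorticoid targets, 8 were called lower and 5 higher at ZT20, where 19.3% and 19.8% of all genes were, and 4 lower and 6 higher under total counts. Their median was -0.66 at ZT20 against 1.14 at ZT2, 0.36 at ZT8 and -0.01 at ZT14, and Tsc22d3 was the one member whose difference was called.

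**Figure D4:**
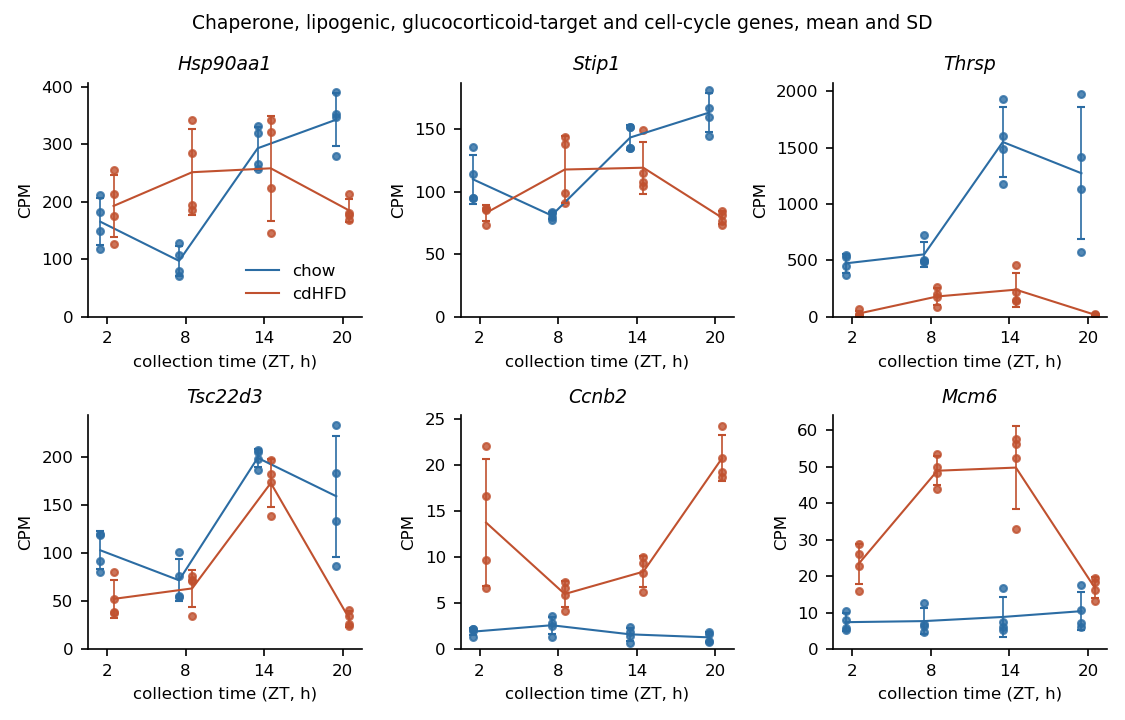
CPM (y axis) of Hsp90aa1, Stip1, Thrsp, Tsc22d3, Ccnb2 and Mcm6 at each collection time (x axis, ZT in h) in chow (blue) and cdHFD (red), with 1 point per library and lines through the means ± SD (n = 4). Tsc22d3 is level at ZT14 (199 and 173 CPM) and apart at ZT20 (159 and 31.4 CPM), and Ccnb2 in cdHFD is highest at ZT20 (20.7 CPM).

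Acmsd, which diverts tryptophan from NAD synthesis (chromosome 1, 127729413 to 127767978), was called between ZT20 and the other times in chow and not in cdHFD. It stood at 82, 76.3, 116 and 92.8 CPM in chow at ZT20 against 45.8, 19.8 and 39.2 at the other times, while the cdHFD means ran from 12.7 to 14.7 CPM over the day. The change at ZT20 was -2.89 ± 0.27 and the difference -1.67 ± 0.32 (edgeR adjusted p = 0.00796). Amino acid catabolism was lower for 33 of 34 genes at ZT20 (27 under total counts), where 19.3% of all genes were. The median was -1.64 against -1.15 to -1.27 at the other times, and none was called as different. Fgf1, a growth factor that improves insulin action, stood at 124, 144, 145 and 129 CPM in chow and 34.7, 27.7, 23.7 and 25.5 CPM in cdHFD, with a change of -2.27 ± 0.18 against -1.17 at ZT2, -0.94 at ZT8 and -1.27 at ZT14. Hopx, a homeodomain cofactor, fell by 1.85 ± 0.18 at ZT20 with a difference of -0.98 ± 0.21, and the sialyltransferase gene St3gal5 fell by 1.15 ± 0.18 with a difference of -1.0 ± 0.20.

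Aqp7, the aquaglyceroporin that carries glycerol (chromosome 4, 41033074 to 41048139), was the largest difference in the other direction. It had 3 counts over the 4 chow libraries and 756 over the cdHFD libraries at ZT20, a ratio of 168 (95% counting interval 57.2 to 816). Chow had 0.273, 0.316 and 0.310 CPM at the other times, all means over 4 livers, and the cdHFD means were 3.73 to 4.36 CPM at all 4 times, with single cdHFD livers from 2.06 to 6.44 CPM. The fitted difference, 3.38 ± 0.36 (edgeR adjusted p = 0.00772), depends on the prior count at such low chow counts, and Aqp7 was the one gene of the 14 called against each of the other times.

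Mtor and Gabarapl1 stood lower in chow at ZT20 than at the other chow times, and neither was called between ZT20 and the other times in cdHFD. Mtor, the kinase that couples nutrients to growth, stood at 29.7, 27.3, 28.9 and 26 CPM in chow and 31.8, 34.4, 35 and 38.9 CPM in cdHFD at ZT20, with no overlap. It was called higher at ZT20 (0.32 ± 0.09) and lower at ZT8 and ZT14 (-0.57 and -0.30), a difference of 0.57 ± 0.11 (edgeR adjusted p = 0.0343). Gabarapl1, an ATG8-family autophagy protein, stood at 523 ± 58 CPM in chow at ZT8 and 178 ± 14.3 at ZT20, and at 174 ± 27.3 and 215 ± 23.8 in cdHFD. Its effect of 0.27 ± 0.21 at ZT20 was not called, its lower values at ZT8 (-1.59) and ZT14 (-0.98) were, and the difference was 1.06 ± 0.25. Syt1, a calcium sensor of vesicle release, and Ift46, of ciliary transport, followed the same course, with differences of 1.57 ± 0.32 and 0.74 ± 0.11 and no call at ZT20. Under total counts Gabarapl1 (0.86), Syt1 (1.19) and Ift46 (0.86) were called higher at ZT20. Arl2bp (1.19 ± 0.25), Sun2 of the nuclear envelope (0.78 ± 0.18), Stom of membrane scaffolds (0.72 ± 0.15) and Ccndbp1 (0.52 ± 0.09) complete the named genes with a higher effect.

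Cytoskeletal actin genes were called higher in cdHFD at the other times but not at ZT20. Actb stood at 1131, 1230.1, 857 and 1136 CPM in chow and 1054, 1121, 1483 and 1361 CPM in cdHFD, and the groups overlapped. The effect of 0.21 ± 0.15 at ZT20 was not called (0.81 and called under total counts), against 0.45 at ZT2, 1.24 at ZT8 and 1.31 at ZT14, all called, and chow Actb went from 533 ± 75.3 CPM at ZT14 to 1088 ± 161 at ZT20. The difference of Actb from the other times (-0.79) lost its call without cdHFD ZT2 replicate 4 (edgeR adjusted p = 0.0557). Actg1 went from 1.69 at ZT8 to 0.21 at ZT20 (0.80 and called under total counts), with chow replicate 4 at 385 CPM well above 136 to 188 in the other chow livers, and the call of its difference was kept in 13 of the 32 fits that left out 1 library. Oasl1, an interferon-induced gene, had diet effects of 0.11 at ZT2, 1.36 at ZT8 and 1.10 at ZT14, called at ZT8 and ZT14, and -0.44 at ZT20 (difference -1.30 ± 0.28), and it was the one of 28 interferon genes whose difference was called. Fmo5, Dnph1 and Tcim had differences of -0.98 ± 0.22, -1.02 ± 0.21 and -1.05 ± 0.25 (the ZT20 call of Tcim was lost under total counts at -0.10), and Wnt5b, Syne4, Fam47e and Ppil1 of -1.61 ± 0.31, -1.65 ± 0.38, -1.54 ± 0.36 and -0.95 ± 0.16.

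Few genes changed direction with the hour, and 6271 of the 17853 tested were called in the same direction at ZT20 and in the mean of the other times. At ZT20, 19 of the 17853 genes were called in one direction while their mean effect over the other 3 times was called in the other. Of these, 13 were lower and 6 higher at ZT20, and for 6 of the 19 the difference itself was called. The 5 lower at ZT20 with the largest differences were Rad51c, Per1, Cyp1a1 (-0.77 against 0.82 at ZT2 and 0.97 at ZT14), Gnat2 (-0.88 against 0.76 at ZT8) and Hsp90aa1. Cyp1a1, a dioxin-inducible P450, stood at only 2.29, 1.17, 2.16 and 2.13 CPM in chow and 1.13, 1.27, 0.786 and 1.42 CPM in cdHFD, and neither its difference nor that of Gnat2 was called (edgeR adjusted p = 0.0689 and 0.0634). Among those higher at ZT20 besides Mtor were Zdhhc20 (0.45), Rai2 (0.46) and Sbds (0.29), whose differences were not called. Being called at ZT20 and in the difference, and at no other single time, held for 9 genes, all lower in cdHFD. Per2, Usp2, Hspe1 and Hsp90ab1 are given above. Tppp, a microtubule protein, stood at 12.2, 11.9, 14.4 and 10.6 CPM in chow and 5.0, 5.27, 5.18 and 4.71 CPM in cdHFD (-1.28 ± 0.30), Neu2, a cytosolic sialidase, fell by 1.11 ± 0.19 and Umps fell by 0.65 ± 0.11 (not called under total counts, -0.06). The other 2 carry predicted names.

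Matrix, macrophage and hepatocyte genes had many calls at ZT20. Of 33 extracellular matrix genes, 31 were called higher, where 19.8% of all genes were, with a median of 1.93. At ZT2, ZT8 and ZT14, 27, 31 and 30 were called higher, with medians of 1.30, 2.16 and 1.84. The metalloproteinase genes Mmp12 (7.86 ± 0.54) and Mmp13 (4.36 ± 0.60), their inhibitor Timp1 (5.43 ± 0.60) and the collagen cross-linker Lox (4.15 ± 0.61) rose furthest at ZT20. Of 20 genes of lipid-associated macrophages, 18 were called higher, among them Trem2 (5.30 ± 0.32, a lipid receptor) and Lgals3 (4.96 ± 0.34, galectin-3), and 1, Apoe, was called lower. Their median was 2.81 at ZT20 and 2.31 to 2.39 at the other times. Of 23 hepatocyte markers, 19 were lower and none higher (13 lower and 1 higher under total counts), where 19.3% of all genes were lower, led by the transcription factor gene Onecut1 (-2.83 ± 0.51) and Serpina1c (-2.63 ± 0.24). Their median was -1.17, against -0.56, -0.89 and -1.05 at ZT2, ZT8 and ZT14, where 16, 17 and 19 were lower. No matrix gene or hepatocyte marker was called as different from the other times. The summed level of the hepatocyte markers ran from 147552 to 173827 CPM in chow and from 61120 to 76936 CPM in cdHFD, and its part in the ZT20 effects was not tested.

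Neutrophil and lymphocyte genes had their highest medians in the dark phase. Of 11 neutrophil genes tested of 17 listed, 10 were higher at ZT20, where 19.8% of all genes were. The medians were 4.0 at ZT20 and 3.83 at ZT14 against 2.10 and 2.17 in the light phase. S100a9 rose by 4.43 ± 0.53 from 0.531 to 12 CPM and S100a8 by 4.48 ± 0.52, both being subunits of calprotectin, while Ly6g stayed at or below 0.103 CPM. None of the neutrophil differences from the other times was called and 4 had an unadjusted p under 0.05 (8.50% of all genes). Of 21 T and NK cell genes, 12 were higher at ZT20 (6 without cdHFD ZT20 replicate 3, 8 without chow ZT20 replicate 2 or 3, and 5 in each sex alone), where 19.8% of all genes were. They were led by Prf1 (2.32 ± 0.57), perforin, and Klrd1 (2.29 ± 0.26), an NK receptor. The median was 1.17 against 0.08 to 0.70 at the other times. No T or NK cell gene was called as different from the other times, and 5 had an unadjusted p under 0.05 (8.50% of all genes). The summed level of the T and NK cell genes was low, 12.3 to 18.1 CPM in chow and 19.7 to 37.6 CPM in cdHFD. Of 16 B and plasma cell genes, 1 was called higher at ZT20 (9 under total counts), and their median of 0.60 was below that of 0.73 at ZT14. The members tested in the neutrophil and the T and NK cell lists passed a filter on low counts, so no count over them speaks for all listed members. Cytosolic ribosomal protein genes were not called for any of 35 at ZT20 (none with an unadjusted p under 0.05 in the difference), but 30 were higher under total counts.

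The diet effect at ZT20 was also tested in each sex. It was called for 4177 genes in males (23.4%) and 4678 in females (26.2%), with 2 livers per group in each. The effects differed between the sexes for 32 genes (0.179%), of which 23 had opposite signs in males and females and 8 were called in both with opposite signs. Without single ZT20 libraries the count of 32 was 28 without cdHFD ZT20 replicate 1 and 13 to 21 without each other one (13, 15 and 15 without cdHFD replicates 2 to 4, 14, 17, 19 and 21 without chow replicates 1 to 4). Large differences were found in sex-biased genes. Cyp3a44, a female-type P450, stood at 0, 0.117, 38.6 and 28.8 CPM in chow and 0.309, 0.554, 1.71 and 2.03 CPM in cdHFD (replicates 1 and 2 male, 3 and 4 female). Its females lost most of their excess over the males, which had next to none in chow, and the female minus male diet effect was -7.06 ± 0.86 (SE, edgeR adjusted p = 0.00122).

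Cyp2a4, a steroid hydroxylase, stood at 2.75, 4.47, 1255 and 1126 CPM in chow and 48.7, 68.3, 219 and 329 CPM in cdHFD, rising by 4.02 in males and falling by 2.12 in females. The male-type hydroxylase gene Cyp4a12a stood at 449, 474, 0.264 and 0.104 CPM in chow and 19.4, 6.57, 0.376 and 0.366 CPM in cdHFD, and fell by 5.15 in males, with no call in females (0.98) and a female minus male effect of 6.13 ± 0.89. Cyp4a12b had a female minus male effect of 5.83 ± 0.87. The sign of the sex difference was the same at ZT2, ZT8 and ZT14 for 27 of the 32 genes, and at ZT14 it rests on 1 cdHFD female. Neither this share nor that of opposite signs was counted over all genes. The signs of Cyp3a44 in males, and of Cyp4a12a and Cyp4a12b in females, rest on values below 1 CPM in both diets.

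One gene stood out as a sex difference of this hour, and it was picked after its values were seen. The ZT14 sex difference set against it rests on 1 cdHFD female. Tat, tyrosine aminotransferase, a glucocorticoid-induced enzyme of amino acid breakdown (chromosome 8, 109990437 to 109999803), stood at 1384, 1878, 3062 and 2582 CPM in chow and 985, 1353, 267 and 200.1 CPM in cdHFD at ZT20. The cdHFD females were far below all other livers, and the higher cdHFD male lay just below the lower chow male. The diet effect was -3.60 in females (called) and -0.48 in males (not called), a difference of -3.11 ± 0.50 (edgeR adjusted p = 0.00150). At ZT2, ZT8 and ZT14 the female minus male effect was -0.40, 0.72 and 0.40, and in a contrast added after the data were seen Tat was the 1 gene of all tested whose sex difference at ZT20 differed from the mean of the other times (-3.36, edgeR adjusted p = 0.0392), with 525 genes at an unadjusted p under 0.05. The value ranged from -3.59 to -3.11 without single ZT20 libraries, with adjusted p from 0.0511 to 0.569, so the call was lost without any one of the 8.

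**Figure D5:**
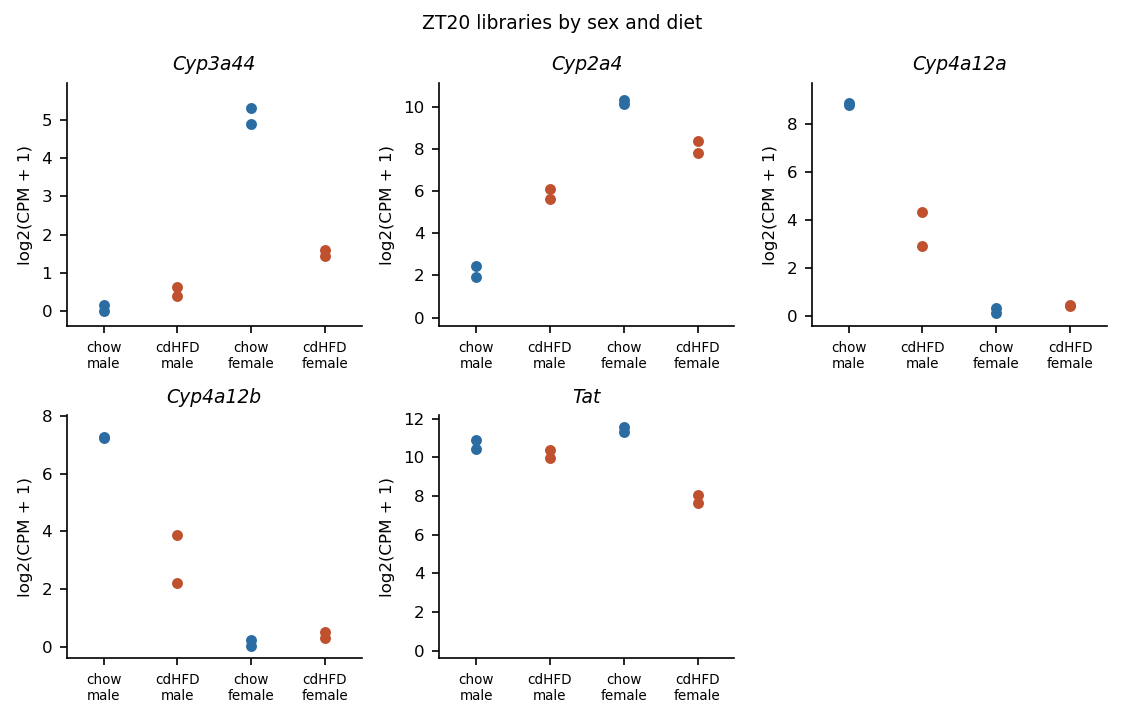
Level at ZT20 as log2(CPM + 1) (y axis) of 4 genes with a large sex difference in diet effect and of Tat, with 1 point per library for chow and cdHFD males and females (x axis, 2 libraries each). Cyp3a44 and Cyp2a4 are lower in cdHFD than in chow females, Cyp4a12a and Cyp4a12b in cdHFD than in chow males, and Tat in cdHFD females lies at 200.1 and 267 CPM.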

How the data were processed

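Poly-T-selected RNA of whole mouse liver was sequenced from 32 libraries, non-directional and paired-end, per the labels' protocols, which plan 40 M reads a sample and require an RNA integrity number above 6.5. HISAT2, featureCounts and DESeq2 and the build GRCm38 (mm10) are named, without roles or versions, per the submitters' processing notes. Deposited values were raw counts per gene, and gene positions are from GRCm38. Libraries without strand cannot separate genes that overlap on opposite strands, and among the genes named, exons of Acmsd, Acss2, Actg1, Arntl, Cdc20, Cry2, Csnk1e, Cyp2a4, Dbp, Elovl3, Fdps, Gabarapl1, Hopx, Hspa1a, Hspe1 (with Hspd1), Idi1, Lingo4, Lox, Mmp12, Neu2, Oasl1, Onecut1, Ppil1, Rbm3, Serpina1c, Sun2, Tcim, Tef, Tk1, Ube2c, Umps and Usp2 overlap those of another gene.

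Of 54532 genes, 17853 passed edgeR's expression filter. The count test was edgeR 4.0.16's quasi-likelihood test (R 4.3.3, TMM scaling) on all 32 libraries, with 8 groups of diet and time plus sex, and p-values adjusted by Benjamini-Hochberg over all genes tested at a threshold of 0.05. The diet effect at ZT20 minus the mean of those at ZT2, ZT8 and ZT14 was a contrast in that fit, and a fit with separate groups for each sex gave the sex differences. Standard errors came from an ordinary least-squares linear model of log2 CPM (prior count 2), without moderation across genes, another estimator than the fold changes. CPM are per effective library size. The procedure was checked on simulated counts with few genes changed, in cdHFD at ZT20 alone. Those counts held no sex effect, no diet effect at other times and no composition shift between diets, so the check does not cover these. Counting intervals are 95% exact and cover counting error only. Named genes were those of the 57 with the largest differences, the 5 outermost at ZT20 in each direction, leading list members, the largest changes of direction and genes called at ZT20 alone, with at least 1 CPM in a group, and the text adds other established names among the 57. Some genes are not reported here. The members and lists were chosen with earlier results of these data known. Whether each replicate is a separate animal is not in the labels, and p-values reflect sample-to-sample spread that may be technical. No replicate pair at ZT20 agreed within counting noise (chi-square per degree of freedom 20.7 to 229). Alternatives were total-count and relative-log-expression scaling, no filter, no sex term, a replicate block, DESeq2 1.42.0, each sex, ZT20 libraries alone and leaving out each library. The contrast of sex differences between times and the fits without single libraries for pairwise and sex contrasts were chosen after seeing the data.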

Additional observations from a re-analysis of the deposited data

Results flagged for a closer look

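Single livers stood apart from the 3 others of their group in 6 of 226 groups examined (113 genes in chow and cdHFD at ZT20), by Dixon's criterion, where chance gives about 5% of groups. The highest were Actg1 in cdHFD replicate 4 at 271 CPM, Cenpa in chow replicate 4 at 6.29 CPM, Ift46 in chow replicate 1 at 25.7 CPM, Vmn2r3 in chow replicate 2 at 0.0777 CPM and Klrd1 in cdHFD replicate 3 at 2.87 CPM. The lowest was Cyp1a1 in chow replicate 2 at 1.17 CPM.

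The test of the difference between times was passed by 57 genes for ZT20 against the mean of the other times, by 508 against ZT8, by 38 against ZT2 and by 26 against ZT14. The log2 differences of named genes with a lower diet effect at ZT20 were Thrsp -3.26, Per3 -2.87, Per2 -2.79, Lingo4 -2.46, Usp2 -2.20, Aacs -2.12, Tef -2.10, Rad51c -2.02, Tsc22d3 -1.90, Mcm6 -1.69 and Acmsd -1.67. They were followed by Syne4 -1.65, Wnt5b -1.61, Tppp -1.58, Fam47e -1.54, Hsp90aa1 -1.36, Cdca7 -1.33, Oasl1 -1.30, Actg1 -1.27, Fgf1 -1.15, Cry2 -1.12, Neu2 -1.09 and Tcim -1.05. The smallest were Dnph1 -1.02, St3gal5 -1.0, Stip1 -1.0, Hopx -0.98, Fmo5 -0.98, Ppil1 -0.95, Hsp90ab1 -0.88, Nampt -0.86, Actb -0.79, Hspe1 -0.74, Dut -0.71 and Umps -0.62. Those with a higher diet effect were Aqp7 3.38, Pif1 2.61, Ccnb2 1.86, Syt1 1.57, Cenpa 1.55, Arl2bp 1.19, Gabarapl1 1.06, Reep4 0.94, Sun2 0.78, Ift46 0.74, Stom 0.72, Mtor 0.57 and Ccndbp1 0.52.

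The diet effect at ZT20 differed between the sexes for 32 genes, and female minus male log2 values were -7.06 for Cyp3a44, -6.14 for Cyp2a4, 6.13 for Cyp4a12a, 5.83 for Cyp4a12b and -3.11 for Tat.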

How the results depend on the processing

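The ZT20 diet count of 6972 was 4177 in males, with 2 livers per group, and ran from 5893 to 6477 without single libraries. The count of 57 genes particular to ZT20 was 465 with no filter on low counts, 32 with no sex term, 183 with DESeq2 and 123 against ZT2 and ZT8 only, and 13 to 89 without single libraries. Of the 465 called with no filter, 461 were genes that pass the filter. Of the 57, 57 were also called by DESeq2, 52 with no filter, 50 under total counts and 32 with no sex term. Without single libraries the differences from ZT8 numbered 245 to 500, from ZT2 8 to 111, from ZT14 2 to 40, and between the sexes 13 to 28. The cause was not tested.

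Replicate numbers did not pair the samples at ZT20 (correlations of same-numbered deviations -0.29, 0.05, -0.03 and -0.14). With the replicate block in place of sex, 7009 genes were called for the diet effect at ZT20, 50 for ZT20 against the other times and 25 against ZT2. Of the 57 genes 44 were still called, and among the others were Per3 (edgeR adjusted p = 0.0857), Tef (0.0510), Hspe1 (0.0616) and Lingo4 (0.0622).

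Sign changes at ZT20 were counted only where the main or the alternative value was called. They were Dut at 0.46 under total counts, Cyp3a44 at 2.89 in males only, and Cyp2a4 at -2.12 and Cyp4a12a at 0.98 in females only. Cyp4a12b, at -4.14 in males and 1.69 (not called) in females, also differed in sign between the sexes. Depth limits genes with few counts, such as Aqp7 and Vmn2r3 in chow, Cyp3a44 in males, and Cyp4a12a and Cyp4a12b in females.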
